A study of Mus musculus with 4 samples.

Results

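The immediate early genes Fos, Fosb, Jun, Junb, Jund, Egr1, Egr2, Ier2, Dusp1 and Atf3 were followed across 4 Illumina bead arrays of mouse islet RNA. All probes that the platform annotation assigns to these 10 symbols were taken, which gave 11 probes of the 46632 on the array, with 2 for Junb and 1 for each other gene. Knockout arrays 1 and 2 hold RNA from isolated islets of 12-week-old C57BL/6 mice whose bone morphogenetic protein receptor 1a gene (Bmpr1a) was knocked out, "Pdx1-controled" per the labels. Wild type arrays 1 and 2 hold islet RNA of wild type mice of the same age and background. Pdx1 is active in pancreatic progenitors and in beta cells, so a Pdx1-driven deletion does not reach cells of other origin in an islet preparation. Whether the wild type mice carried Cre is not stated in the labels. Nor do these say if the 2 arrays per genotype represent different animals, so the p-values below cover only the spread between 2 arrays, which may be technical, and the number of arrays limits the precision.

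Immediate early genes are transcribed within minutes of a stimulus from factors that are already in the cell, and most of their transcripts are short-lived. Fos and Jun family proteins pair through leucine zippers to form the AP-1 transcription factor, Egr proteins are zinc finger transcription factors, and Dusp1 is a phosphatase that switches MAP kinases off again. In beta cells, glucose, membrane depolarisation and cyclic AMP are known to induce several of them, and growth factors and cell stress do so in many cell types.

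The proximal promoters of Fos, Jun, Junb and Dusp1 are shown, 4 of the 6 genes whose signal was at least 2-fold lower on knockout 2 than on knockout 1. Those of Egr1 and Fosb, the other genes of the 6, are not shown. The bases come from RefSeq (build GRCm38.p6), read 5′ to 3′ on the strand of the gene, and end at the last base before the annotated gene. They cover chr12:85473640-85473889 (plus strand) for Fos, chr4:95052223-95052472 (minus strand) for Jun, chr8:84978749-84978998 (minus strand) for Junb and chr17:26508473-26508722 (minus strand) for Dusp1. Capitals mark matches to TGACG, the core of the cyclic AMP response element, or to the full element TGACGTCA, which contains that core.
Fos: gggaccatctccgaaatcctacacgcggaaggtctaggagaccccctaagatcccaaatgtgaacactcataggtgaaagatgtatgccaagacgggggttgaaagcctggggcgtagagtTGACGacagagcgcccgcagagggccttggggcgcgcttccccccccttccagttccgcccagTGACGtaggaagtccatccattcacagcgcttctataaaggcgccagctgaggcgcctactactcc
Jun: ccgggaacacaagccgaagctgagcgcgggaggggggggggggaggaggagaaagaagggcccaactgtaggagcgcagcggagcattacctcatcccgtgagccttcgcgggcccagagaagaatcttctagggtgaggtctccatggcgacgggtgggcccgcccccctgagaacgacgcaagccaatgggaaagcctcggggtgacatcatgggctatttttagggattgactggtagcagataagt
Junb: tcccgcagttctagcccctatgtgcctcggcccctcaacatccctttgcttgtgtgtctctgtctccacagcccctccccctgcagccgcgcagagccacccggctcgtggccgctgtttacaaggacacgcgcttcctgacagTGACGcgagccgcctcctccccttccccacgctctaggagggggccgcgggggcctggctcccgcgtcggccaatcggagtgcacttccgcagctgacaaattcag
Dusp1: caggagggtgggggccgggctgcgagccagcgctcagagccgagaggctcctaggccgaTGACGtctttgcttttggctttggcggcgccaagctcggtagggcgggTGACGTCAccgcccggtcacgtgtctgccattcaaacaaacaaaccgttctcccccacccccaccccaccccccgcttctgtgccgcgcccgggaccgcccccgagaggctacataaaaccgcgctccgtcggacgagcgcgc

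TGACG, on either strand, stood in the 250 bases before a start of 6 of the 8 genes that the promoter table holds under these symbols (Fos, Fosb, Junb, Egr2, Dusp1 and Atf3), and of 19.8% of all 27025 genes in it. The full element TGACGTCA stood in 1, Dusp1, and in 1.77% of all genes. The AP-1 site TGANTCA stood in 0 of the 8 and in 7.82% of all genes, and the core of the serum response element (the CArG box) in 1, Egr2, and in 1.62%. In Fos the TGACG matches lie 129 to 125 and 66 to 62 bases before the start. A match is a run of letters and not a measured binding site, and no match concerns only this window.

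Each array held between 14785 and 16171 probes with a detection p, which compares a probe with negative control beads, below 0.05, and median raw intensities lay between 76.8 and 81.5. The brighter Bmpr1a probe, whose place relative to the deleted part is not known here and which therefore checks no label, had raw intensities of 887 and 687 on knockout arrays 1 and 2, and of 793 and 851 on wild type arrays 1 and 2 (log2 change -0.28 ± 0.14 SE, adjusted p = 0.204). All beta, alpha, delta and PP cell markers on the array were detected on at least 1 array. The summed raw intensity of 12 lymphocyte markers was 1327 and 1690 on the knockout arrays, and 14758.5 and 15321 on the wild type arrays. All 12 fell, beside 11% of all tested genes. Several, among them Cd3e (59.9 and 70.5 on the knockout arrays) and Cd3g (60.5 and 64.5), entered the test only through the wild type arrays, where they are brighter. Lymphocytes also express immediate early genes, and their part in the results below was not tested. In whole-islet RNA, fewer cells of a type and less RNA per cell cannot be told apart.

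Of the 10 genes, 8 passed the filter for testing, which asked for a detection p below 0.05 on the 2 knockout arrays, the 2 wild type arrays or all of them. Fos, Fosb, Jun, Junb, Jund, Egr1 and Dusp1 were above background on all 4 arrays. Fos, Fosb, Jun, Junb, Egr1 and Dusp1 were bright on knockout 1 and on both wild type arrays and several-fold dimmer on knockout 2. The genotype comparison of these 6 genes therefore depends on which knockout array is used, as the plot of raw intensity by array shows.

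**Figure D1:**
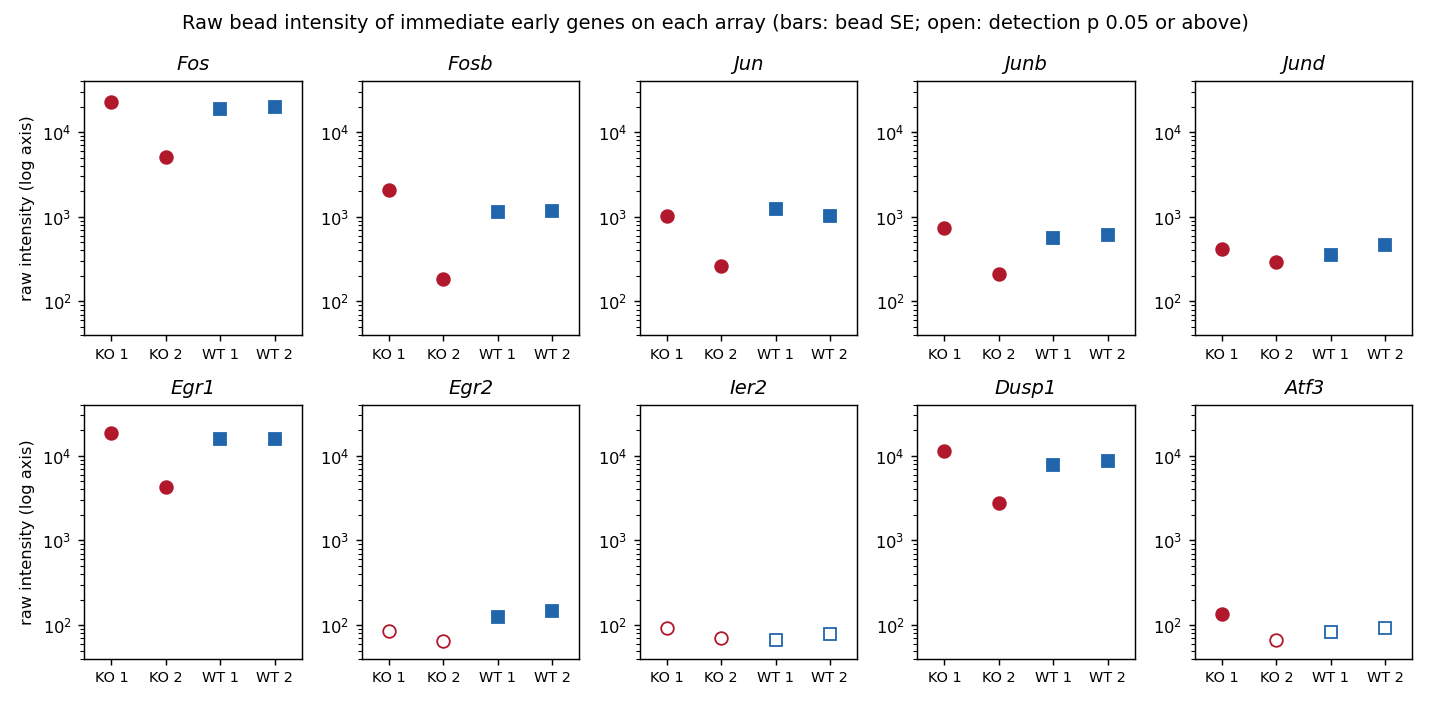
Raw bead intensity (log axis) of the brighter probe of each gene on knockout (KO, red circles) and wild type (WT, blue squares) arrays, with bead standard errors that are mostly smaller than the symbols and open symbols for values not above background. Fos, Fosb, Jun, Junb, Egr1 and Dusp1 are lowest on KO 2, with Fos at 5134 there and at 18579.6 or higher on the other arrays.

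Fos, the founding partner of Jun in AP-1, had raw intensities of 22683 ± 983 and 5134 ± 232 on knockout arrays 1 and 2 (± the standard error of the beads), against 18579.6 ± 403 and 19698 ± 675 on wild type arrays 1 and 2. Knockout 1 was the highest and knockout 2 the lowest of the 4 arrays, so the genotypes overlapped. Normalized log2 values averaged 13.36 ± 1.57 in knockout and 14.21 ± 0.02 in wild type islets (SD, n = 2 each). The difference, -0.85 ± 0.64 (SE), did not pass limma's test (adjusted p = 0.366). The highest raw intensities on the arrays were 36837 to 40522, so Fos lay below the top of the range.

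Fosb, a second Fos family partner of Jun, differed most between the knockout arrays, with raw intensities of 2085 ± 112 and 184 ± 12.5, against 1131 ± 104 and 1179 ± 74.0 on the wild type arrays. Knockout 1 lay above and knockout 2 below both wild type arrays. The log2 change was -1.30 ± 1.09 (adjusted p = 0.416). On knockout 2 the Fosb signal was 8.84% of that on knockout 1.

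Jun had raw intensities of 1020 ± 61.8 and 262 ± 13.6 on the knockout arrays, against 1238 ± 51.9 and 1032 ± 42.8 on the wild type arrays. After normalization both knockout values lay below both wild type values, with knockout 1 close to wild type 2 (9.76 against 9.98 on the log2 scale). The change of -1.46 ± 0.62 did not pass (adjusted p = 0.132). Junb, a Jun relative that forms a weaker activator than Jun, had raw intensities of 728 ± 41.6 and 208 ± 11.2 on the knockout arrays, against 559 ± 22.7 and 608 ± 28.0 on the wild type arrays. Its genotypes overlapped, and the change was -0.89 ± 0.58 (adjusted p = 0.305). Another Junb probe was not above background on any array (raw intensities 61.0 and 62.5 on the knockout arrays, and 67.3 and 55.6 on the wild type arrays).

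Jund, the Jun family gene known for steady rather than stimulus-driven transcription, was also lowest on knockout 2, but dropped by less than 2-fold from knockout 1. Its raw intensities were 414 ± 24.0 and 288 ± 14.5 on the knockout arrays, against 349 ± 15.7 and 468 ± 19.7 on the wild type arrays. The genotypes overlapped. Array 2 minus array 1 was 0.42 on the log2 scale for wild type and -0.54 for knockout. The change was -0.39 ± 0.23 (adjusted p = 0.247).

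Egr1 followed Fos closely, with raw intensities of 18410.3 ± 828 and 4267 ± 203 on the knockout arrays, against 15724 ± 656 and 15794 ± 650.3 on the wild type arrays. The wild type arrays were within their bead error of each other, and the knockout arrays lay on either side of them. The change was -0.85 ± 0.62 (adjusted p = 0.353). Egr2 behaved differently, at 86.1 ± 4.05 and 64.3 ± 3.47 on the knockout arrays, neither above background, against 124 ± 5.57 and 146 ± 6.59 on the wild type arrays, both above it. Setting the wild type mean against the lowest detected value of each knockout array, its level in knockout islets was at least 1.56-fold lower (adjusted p = 0.0112). Egr2 passed the filter only through the wild type arrays, where it is high. The call did not hold when wild type 2 was left out (adjusted p = 0.0674) or when dim probes were kept (adjusted p = 0.0536).

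Dusp1, whose product dephosphorylates MAP kinases, had raw intensities of 11453 ± 438 and 2792 ± 87.7 on the knockout arrays, against 7862 ± 243 and 8700 ± 329 on the wild type arrays. Knockout 1 was again the highest array and knockout 2 the lowest. The change was -0.62 ± 0.60 (adjusted p = 0.482). Atf3, a stress-induced transcription factor of the same leucine zipper class, was above background only on knockout 1, at 137 ± 15.7, with 66.5 ± 8.09 on knockout 2 and with 83.3 ± 5.63 and 93.2 ± 10.2 on the wild type arrays. Ier2, a small nuclear protein of growth factor responses, was not above background on any array (92.5 and 69.5 on the knockout arrays, and 67.2 and 77.8 on the wild type arrays). Neither entered the test.

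Across both arrays of each genotype, 1 of the 8 tested genes was lower and 0 were higher at an adjusted p below 0.05, beside 11% of all 9352 tested genes lower and 14.5% higher. At an unadjusted p under 0.05 the counts were again 1 and 0, beside 16.3% of all tested genes lower and 23.2% higher. Counted by probe, 14.1% of all (2203 of 15639) were higher and 11.4% (1785) lower, and with median scaling, which moved the median of all probes to 0.21, 3517 were higher and 1391 lower. The median change of the 8 was -0.87, beside 0.06 over all tested genes. Knockout and wild type arrays did not overlap for 2 of the 8, Jun and Egr2, both lower in knockout islets, where 28.7% of all tested genes did so. No gene of the 8 was higher without overlap, where 39.8% of all were. With 2 arrays against 2 an exact permutation test of a single gene could not go below p = 0.333.

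These counts turned on single arrays. With knockout 2 alone set against both wild type arrays, 7 of 8 tested genes were lower, every one but Jund, beside 9.35% of all genes lower in that fit. Among the 7, Egr2 was in the test only through the wild type arrays. The changes reached -3.21 for Fosb, -2.51 for Jun, -1.96 for Fos, -1.92 for Egr1, -1.90 for Junb and -1.66 for Dusp1. With knockout 1 alone against the same wild type arrays, Fosb was higher by 0.62 (adjusted p = 0.0336). Atf3, which entered the test only through knockout 1, where it is bright, was at least 1.55-fold higher (adjusted p = 0.0131). With both, 2 of 9 were higher, beside 12.9% of all genes. Egr2, in the test only through the wild type arrays, was the 1 of 9 lower, by at least 1.61-fold (adjusted p = 0.0308), beside 10.4%. There Fos changed by 0.26, Egr1 by 0.23, Junb by 0.12, Dusp1 by 0.42 and Jun by -0.41, none past the test (adjusted p = 0.0882 to 0.560). In these fits the lone knockout array is assumed to vary as the wild type arrays do, and both fits share the wild type arrays. The spread between the knockout arrays was wider than that for Fosb, Jun and Fos (SD 2.71, 1.49 and 1.57). In wild type their SD was 0.03, 0.28 and 0.02. For Egr2 the SD was 0.28 in knockout and 0.32 in wild type. Without wild type 2 the count lower was 0.

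**Figure D2:**
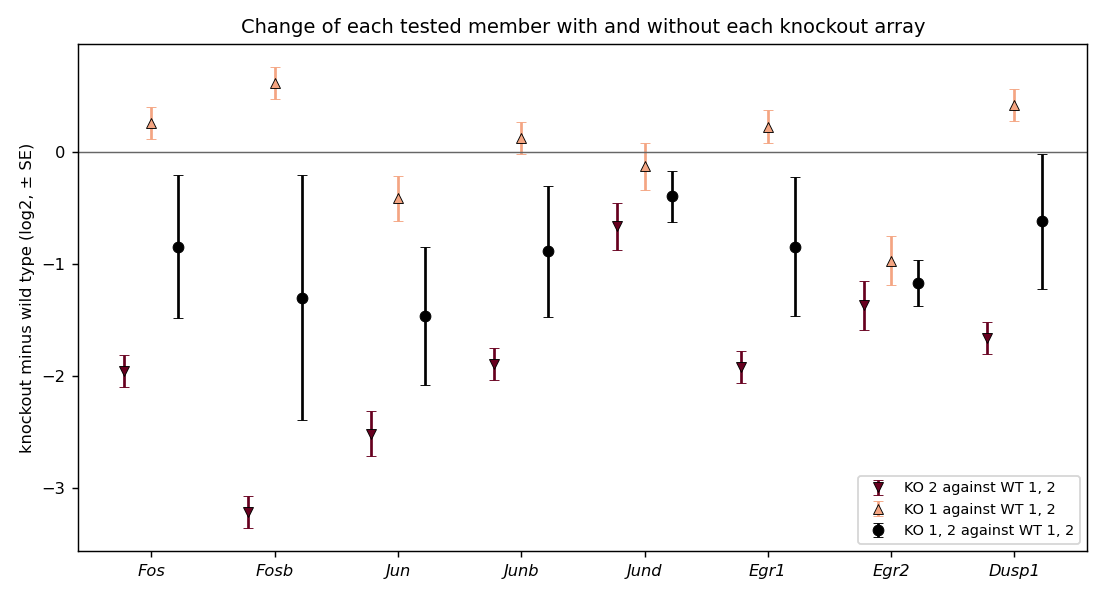
Knockout minus wild type (log2, ± SE of the limma fit) for each tested gene, with KO 2 alone, KO 1 alone and both KO arrays set against both WT arrays. Fos, Fosb, Junb, Egr1 and Dusp1 lie above 0 with KO 1 alone and below it with KO 2 alone, while Egr2 lies below 0 in all 3.

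The spread between the knockout arrays was next set against that of all tested genes, a comparison chosen after the values had been seen. On knockout 2, 6 of the 8 tested genes were at least 2-fold lower than on knockout 1, beside 0.545% of all tested genes (51 of 9352). None was at least 2-fold higher, beside 0.567% of all tested genes. These were Fosb (-3.83 on the log2 scale), Fos (-2.22), Egr1 (-2.15), Jun (-2.10), Dusp1 (-2.08) and Junb (-2.02). Fosb had the lowest value of all tested genes, and the other 5 were among the 10 lowest. Apart from Fosb, these genes dropped in nearly the same proportion, the knockout 2 signal being 22.6% of knockout 1 for Fos, 23.2% for Egr1, 24.4% for Dusp1, 25.7% for Jun and 28.6% for Junb.

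Between the wild type arrays the same genes were close. Wild type 2 minus wild type 1 was -0.03 for Fos, -0.05 for Fosb, -0.06 for Egr1, 0.05 for Junb, 0.06 for Dusp1 and -0.39 for Jun. None of the 8 reached 2-fold in either direction, where 0.0535% of all tested genes were as much lower and 0.0855% as much higher on wild type 2, 13 genes together. Over all tested genes the standard deviation of the array difference was 0.316 between the knockout arrays and 0.222 between the wild type arrays. On the knockout arrays the lymphocyte marker sum was 1327 on knockout 1 and 1690 on knockout 2, and that of 5 stromal cell markers, with Col1a1 and Col1a2 not above background, was 1179 and 2513. The sum of 6 acinar cell markers was 31270.3 and 36157. These 3 sums were higher on knockout 2, whereas that of 7 beta cell markers was lower there (109425 on knockout 1 and 97159 on knockout 2). The duct (4817 and 4176) and endothelial (2850 and 2483) marker sums were lower there too. Those of alpha (25206 and 30637), delta and PP (58816.5 and 61569), and macrophage and dendritic cell markers (2593 and 2909) were higher. Their part in the difference was not tested.

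**Figure D3:**
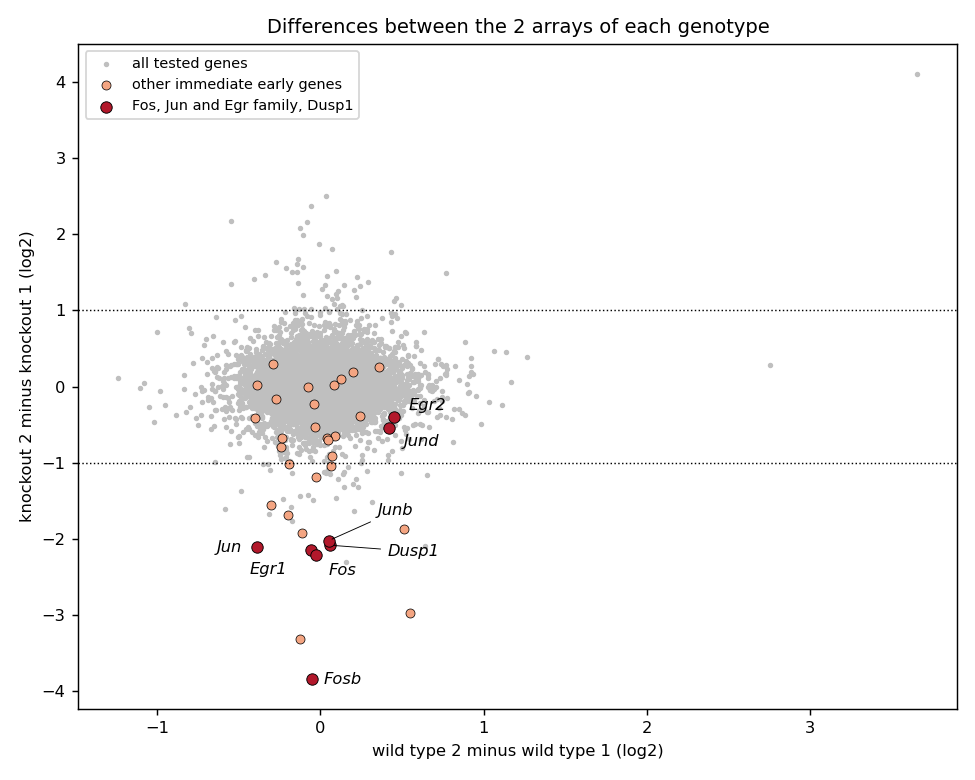
Difference between the arrays of a genotype for every tested gene (grey), with wild type 2 minus wild type 1 across and knockout 2 minus knockout 1 upward, both log2, and dotted lines at 2-fold. Fosb, Fos, Egr1, Jun, Dusp1 and Junb lie at -2.02 or lower on the vertical axis and between -0.39 and 0.06 on the horizontal one.

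The profile of Fos over the 4 arrays, centred on its mean, was compared with that of every tested gene by the root mean square difference on the log2 scale. Egr1 was at 0.0266 and Junb at 0.0768, and 0 genes outside the 10 were closer than either. Dusp1 was at 0.128, with 1 other gene closer, Jun at 0.336, with 7 closer, and Fosb at 0.614, with 71 closer. The 3 nearest genes outside the 10 were Rasd1, a small GTPase gene (0.105), Zfp36, whose product marks AU-rich transcripts for decay (0.222), and Rbm28, a nucleolar RNA-binding protein gene (0.225). Rasd1 had raw intensities of 1597 and 343 on the knockout arrays, against 916 and 1085 on the wild type arrays. These are distances over 4 arrays and carry no test.

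Other immediate early genes showed the difference between the knockout arrays in part. Of 43 listed, 41 were on the array and 27 tested. On knockout 2, 9 of the 27 were at least 2-fold lower than on knockout 1, beside 0.545% of all tested genes. At least 2-fold higher were 0 of the 27, beside 0.567%. The members named here, chosen after their values were seen, are the lowest of the 9. Csrnp1, a nuclear protein gene of growth factor responses, had raw intensities of 548 and 98.4 on the knockout arrays, against 177 and 172 on the wild type arrays. Arc, an activity-regulated gene of neurons, had 512 and 108, against 144 and 183. In both genes the wild type arrays lay between the knockout arrays. Zfp36 differed by -1.92, Btg2, an antiproliferative gene, by -1.87 and Klf4, a zinc finger factor gene, by -1.68.

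Together, 15 of the 51 genes at least 2-fold lower on knockout 2 were among the 10 genes or this list. This is 29.4% of the 51 and 42.9% of the 35 tested, where the 51 are 0.545% of all tested genes. Not every immediate early gene took part. Egr3, a relative of Egr1, differed by 0.02 between the knockout arrays at its brighter tested probe. That probe changed by 0.09 between genotypes, and the other tested Egr3 probe by -1.02. Gadd45b, a stress-response gene, differed by 0.26 between the knockout arrays and Hbegf, a growth factor gene, by 0.30. Fosl1, Myc, Nr4a1, Nr4a3 and Ptgs2 were among 10 listed genes not above background on any array. The sum of raw intensities over the list was 25177 and 15269 on the knockout arrays, against 18423 and 19106 on the wild type arrays.

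In the genotype comparison 1 of the 27 rose and 0 fell, beside 14.5% and 11% of all tested genes, with a median change of -0.02. At an unadjusted p under 0.05, 2 were higher and 1 lower, beside the 23.2% and 16.3% of all tested genes. Ccn2, a matricellular protein gene of Yap and Tgf beta signalling, rose by 0.90 ± 0.15 (adjusted p = 0.00892), which no longer passed once wild type 2 was left out (adjusted p = 0.0663). Fosl2, a further Fos relative, was above background on the knockout arrays alone. Its knockout level was at least 1.74-fold higher but did not pass (adjusted p = 0.181), with its other tested probe at -0.31. Knockout 1 alone was at least 2.98-fold higher than the wild type arrays (adjusted p = 0.00311), and knockout 2 alone at least 1.02-fold. The probe entered the test only through the knockout arrays, where it is bright.

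**Figure D4:**
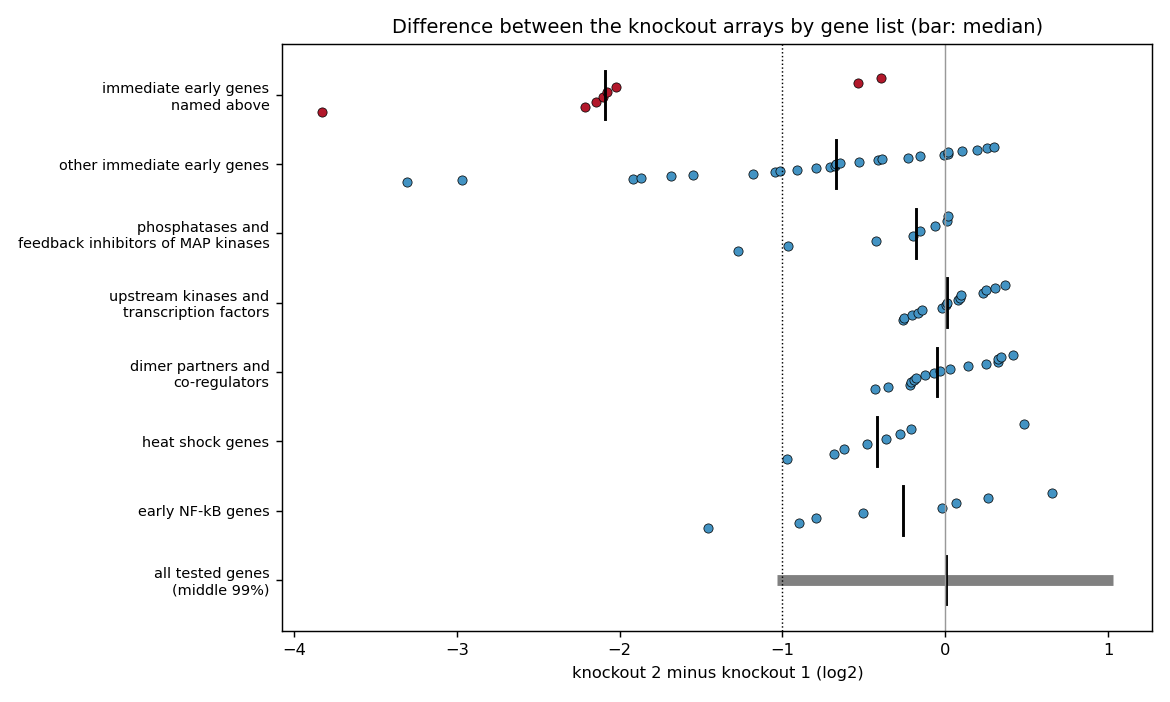
Knockout 2 minus knockout 1 (log2) of each tested gene in the gene lists, with black bars at the medians, a dotted line at 2-fold lower and a grey bar over the middle 99% of all tested genes. The 8 tested genes of the top row have a median of -2.09 and the other immediate early genes one of -0.67, while upstream kinases and transcription factors lie around 0.01.

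Of 8 tested phosphatases and feedback inhibitors of MAP kinases other than Dusp1, 2 rose and 1 fell between genotypes (median change 0.00). Over all tested genes 14.5% rose and 11% fell. Between the knockout arrays 1 of the 8, Dusp4, was at least 2-fold lower on knockout 2 (-1.27), beside 0.545% of all tested genes. Dusp2, a phosphatase of haematopoietic cells, was above background on the wild type arrays alone, its knockout level being at least 3.16-fold lower (adjusted p = 0.000234). It entered the test only through the wild type arrays, where it is bright. All 12 lymphocyte markers were also lower in knockout islets, and their part in this difference was not tested. Dusp14 rose by 0.94 ± 0.14 (adjusted p = 0.00609), with 1 wild type array not above background. It entered the test only through the knockout arrays, where it is brighter, and did not pass when wild type 1 was left out. Dusp8 rose by 0.60 ± 0.17 (adjusted p = 0.0458), a call that held in 9 of 14 processing settings. The call was lost, among others, without knockout 1, knockout 2 or wild type 2. The count of risen genes was 1 without knockout 1, wild type 1 or wild type 2, and that of fallen genes 2 without knockout 1.

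The kinases and transcription factors that act upstream of immediate early genes did not show the difference between the knockout arrays. Of 15 tested, 0 differed by 2-fold there (range -0.26 to 0.37, median 0.01). That count is near the share of all tested genes, 0.545% at least 2-fold lower and 0.567% higher on knockout 2. Between genotypes 3 rose and 3 fell (median change 0.09), beside 14.5% and 11% of all tested genes. Rps6ka5 encodes the histone H3 kinase Msk1. Its brightest probe was above background on the knockout arrays alone, at least 2.60-fold higher (adjusted p = 0.000859), with its other probes at 0.59 and 1.07. Rps6ka3, a ribosomal S6 kinase gene, was likewise at least 1.54-fold higher (adjusted p = 0.00678), but not past the test once wild type 2 was left out (adjusted p = 0.0578). Both entered the test only through the knockout arrays, where they are bright. Mapkapk2, a kinase gene downstream of p38, fell by 0.90 ± 0.13 (adjusted p = 0.00497). Mapk10, a Jun kinase gene, rose by 0.78 ± 0.15 (adjusted p = 0.0148), though not when wild type 1 was left out (adjusted p = 0.0930), with its other tested probe at 0.15. The count of fallen genes was 1 without knockout 1, wild type 1 or wild type 2, and that of risen genes 7 with median scaling.

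Dimer partners and co-regulators also lay close on the knockout arrays, with 0 of 16 differing by 2-fold (range -0.43 to 0.42). This count too is near the share of all tested genes (0.545% lower and 0.567% higher). Between genotypes 6 rose and 1 fell, beside 14.5% and 11% of all tested genes, with a median change of 0.34. Atf5, a stress-response leucine zipper gene of beta cells, rose by 1.80 ± 0.13 (adjusted p = 0.000460), Ddit3, which encodes the stress factor Chop, by 1.01 ± 0.13 (adjusted p = 0.00341) and Nfe2l1 by 0.77 ± 0.13 (adjusted p = 0.00810), the last not past the test once wild type 2 was left out (adjusted p = 0.0691). Nab2, a corepressor that binds Egr proteins and is itself an Egr target, fell by 1.53 ± 0.20 (adjusted p = 0.00380). Its pattern differed from that of Egr1, since both knockout arrays were below both wild type arrays (9.58 and 9.99 against 11.50 and 11.13, normalized log2). The count of risen genes was 4 without knockout 2, 3 without wild type 1 and 2 without wild type 2.

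Of 8 heat shock genes tested, 4 fell and 0 rose (median change -0.82), beside 11% and 14.5% of all tested genes. At an unadjusted p under 0.05 the counts were 5 and 0, beside 16.3% and 23.2%. On knockout 2, 7 of the 8 were lower than on knockout 1, with a median difference of -0.42, beside 0.002 over all tested genes. By 2-fold 0 of the 8 were lower, near the 0.545% of all tested genes. Hspa1a, the inducible Hsp70 gene, above background on only 1 knockout array, fell by 2.08 ± 0.18 (adjusted p = 0.000876). It entered the test only through the wild type arrays, where it is brighter. The small heat shock protein gene Hspb8 fell by 1.66 ± 0.18 (adjusted p = 0.00211). The chaperone gene Dnajb1 fell by 1.22 ± 0.30 (adjusted p = 0.0323) and differed by -0.97 between the knockout arrays. Its call held in 11 of 14 processing settings and was lost, among others, without either wild type array. Hspb1 fell by 1.01 ± 0.18 (adjusted p = 0.0103), though not when wild type 1 was left out (adjusted p = 0.0650). The count was 6 without knockout 1 and 2 without wild type 1. Of 8 early NF-kB genes, 2 fell and 0 rose, beside 11% and 14.5% of all tested genes. Socs3 was the 1 of these 8 at least 2-fold lower on knockout 2 than on knockout 1 (-1.46), beside 0.545% of all tested genes. Icam1, an adhesion molecule gene, fell by 1.99 ± 0.14 (adjusted p = 0.000454) and differed by 0.26 between the knockout arrays. Tnfaip3, an inhibitor of NF-kB, fell by 1.498 ± 0.246 (adjusted p = 0.00860), though not with dim probes kept (adjusted p = 0.0503), and differed by -0.50 between the knockout arrays. The list median was -0.36, and 3 fell without knockout 1 or without knockout 2, and 1 rose without knockout 2.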

How the data were processed

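Per the file headers, the deposited scanner table gives the linear intensity averaged over the beads of a probe, with their standard error and number, and a detection p-value. A further deposited table has log2 values processed by the authors, which on wild type 1 equal the log2 of the raw intensity and on every array keep its ranks. For how they were made, the sources used here give nothing. Groups came from the labels.

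In R 4.3.3, limma 3.58.1 served for normexp background correction (parameters estimated from detection p-values, offset 16) and for quantile normalization of the log2 intensity. The 15639 probes with a detection p below 0.05 on the whole pair of arrays of a genotype were tested by lmFit and eBayes, with Benjamini-Hochberg adjustment over all of them and a threshold of 0.05. A gene is represented by its brightest tested probe. The offset shrinks changes of dim probes. The fit was tested on simulated data.

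Platform annotation named 29965 probes with 1 symbol, 10 had several and 16657 were not listed. The genes and the 6 lists (122 of 138 entries on the array) were chosen with earlier results of these data known. Of each list the text names up to 4 genes with the largest changes past the threshold, or, with fewer than 2 past it, the 2 that changed most. The 3 genes nearest to Fos are also named. Other named genes were chosen after their values were seen. Of the tested probes, 35.9% in the knockout and 26.8% in the wild type pair differed by more than 1.96 bead standard errors. Alternatives were median scaling, cyclic loess, the authors' values, no background correction, an offset of 50, no filter, a detection p of 0.01, the mean of a gene's probes, an intensity trend, a replicate block and leaving out each array.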

Additional observations from a re-analysis of the deposited data

How the results depend on the processing

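Leaving out 1 array moved the results most. The count of the immediate early genes higher ranged from 0 to 2, that lower from 0 to 7 and their median change from -1.91 to 0.23. Over all probes the counts ranged from 695 to 2206 higher and from 838 to 1769 lower, and over the genes of the 6 lists from 5 to 20 higher (12 with all arrays) and from 7 to 21 lower (11 with all arrays). Without knockout 2 the direction turned for Fos (0.26), Fosb (0.62), Junb (0.12), Egr1 (0.23), Dusp1 (0.42), Rasd1 (0.46) and Zfp36 (0.50). For Fosl2 the value without knockout 1 (-0.30) is that of its other probe, which is then the brighter one and was at -0.31 with all arrays, while the probe reported for Fosl2 stays above 0 (0.17). Changes that passed the test with 1 array left out but not with all were Fos (-1.96), Fosb (-3.21), Jun (-2.51), Junb (-1.90), Egr1 (-1.92), Dusp1 (-1.66), Rasd1 (-1.85), Zfp36 (-1.42) and Rbm28 (-1.73) without knockout 1, and Fosl2 (1.72) without knockout 2, beside Fosb above. These settings differ from the main one only in the arrays used and the probes that then pass the filter. With median scaling 3517 probes were higher and 1391 lower, where the main counts were 2203 and 1785, and the cause was not tested. With no filter on dim probes, 0 of the immediate early genes and 7 list genes were lower, and with a detection p below 0.01, which leaves Egr2 untested, 0 of the immediate early genes. Whether the replicate numbers pair the samples is not known, and the labels name no shared batch. The deviations of same-numbered arrays correlated at 0.0181 across tested probes, which cannot exclude pairing. With the replicate block, 2 of the immediate early genes were lower, as Jun passed (adjusted p = 0.0327). The 6 genes at least 2-fold lower on knockout 2 than on knockout 1 were 6 or 7 in number under the 7 other scalings, background corrections and filters, chosen for this count after seeing the data, and the other immediate early genes were 6 to 12 (9 in the main setting). Dim signals limit Egr2, Ier2 and Atf3.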

Other observations

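Of the 51 genes at least 2-fold lower on knockout 2 than on knockout 1, 34 were in none of the lists. The lowest 5 by this difference were Rasd1 (-2.31), 6330403K07Rik (-2.09), Txnl1, a thioredoxin-like gene (-1.77), Ccl4, a chemokine gene (-1.69), and C2cd4a, a gene near a diabetes-associated locus in humans (-1.67). C2cd4a was among the bright genes, with raw intensities of 13796 and 4588 on the knockout arrays, against 13223 and 11478 on the wild type arrays. Txnl1 showed another pattern, at 1238 and 377 on the knockout arrays, against 351 and 334 on the wild type arrays, so that knockout 1 alone was high.

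In the other direction, 53 genes (0.567%) were at least 2-fold higher on knockout 2 than on knockout 1. Fbxw5, an F-box protein gene, led with a difference of 4.10, and differed by 3.66 between the wild type arrays too. Smim17 (2.50) and Lrrc8c (2.38), a subunit gene of volume-regulated anion channels, followed, with wild type differences of 0.03 and -0.06.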
